A study of Gallus gallus with 4 samples.

Results

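Binding of c-Myc was described at 6 chicken genes of glucose and glycogen metabolism, GYG1, GPI, PGK1, LDHA, MDH1 and PCK1. The members were every peak of the 2 deposited c-Myc peak lists whose nearest annotated gene is 1 of these 6. This gave 4 of 1061 peaks in myotubes and 20 of 19354 peaks in myoblasts, 24 in all, at 6 of the 4832 genes named in either list. The genes were picked because peaks were assigned to them, so their peak counts and tags are descriptions and carry no test.

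The cells were primary chicken embryo skeletal muscle cells at passage 1, of no stated genotype, pooling or number of embryos. Myotubes, the fused and differentiated cells, had been moved to medium with 2% horse serum, and myoblasts, the proliferating precursors, were kept in 15% fetal bovine serum. Each state had 1 c-Myc and 1 IgG chromatin immunoprecipitation library, 4 in all, and no replicate, so a difference between states is a difference between single libraries. Peak lists hold no expression values, and the cell types could not be checked against markers.

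The c-Myc library held 8.65M tags in myotubes and 11.5M in myoblasts, and the IgG library 19.3M and 16.1M. Peaks were 154 bp wide in myotubes and 200 bp wide in myoblasts. Each peak's score, as deposited by the authors, gives its c-Myc tags for every 10M sequenced (M for 1e+06), with no correction for width. The typical peak held 11.5 tags in myotubes and 14.5 in myoblasts. The intervals below are 95% intervals from exact formulas, approximate at fractional tags, and cover counting error only.

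c-Myc is a transcription factor that binds DNA together with MAX, often at E-box sequences close to transcription start sites (TSS). In mammalian cells it is known for raising the expression of glycolytic enzymes, and LDHA is among its best known targets there. Glycolysis turns glucose into pyruvate, which lactate dehydrogenase reduces to lactate or mitochondria oxidise. Muscle also stores glucose as glycogen, and the malate-aspartate shuttle carries the electrons of cytosolic NADH into mitochondria.

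Promoter peaks, centred within 1 kb of the TSS, were listed at GYG1 and MDH1 in myotubes and at GPI, PGK1, LDHA and MDH1 in myoblasts. MDH1 was thus the gene of the 6 with a promoter peak in both lists, and PCK1 had one in neither. The glycolytic and lactate genes GPI, PGK1 and LDHA had no assigned peak at all in myotubes. The same held for most genes, since the myotube list named 885 of the 4832 genes. Over all genes named in either list, 1.37% had a promoter peak in myotubes and 22.0% in myoblasts, beside 2 and 4 of the 6 genes chosen here. Of single peaks, 6.31% of the myotube list and 5.71% of the myoblast list lay within 1 kb of a TSS, beside 2 of the 4 and 4 of the 20 peaks described here. Nothing is read from that contrast, since the genes were chosen on these peaks.

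The 6 promoter peaks lay 122 to 276 bp from their TSS, and the other 18 peaks lay 7.19 to 127 kb away, so the count of promoter peaks was the same with windows of 500 bp and 5 kb. Those 18 were all annotated as intergenic, 3 of them with a CpG island label and 1 with a simple repeat label, and 0 fell in an exon or intron. The myoblast list named a median of 3 peaks per gene, with quartiles of 1 and 5. GYG1 had 5 there, MDH1 and PGK1 had 4 each, GPI and LDHA had 3 each and PCK1 had 1. In myotubes GYG1 had 2 and MDH1 and PCK1 had 1 each, against a median of 1.

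**Figure D1:**
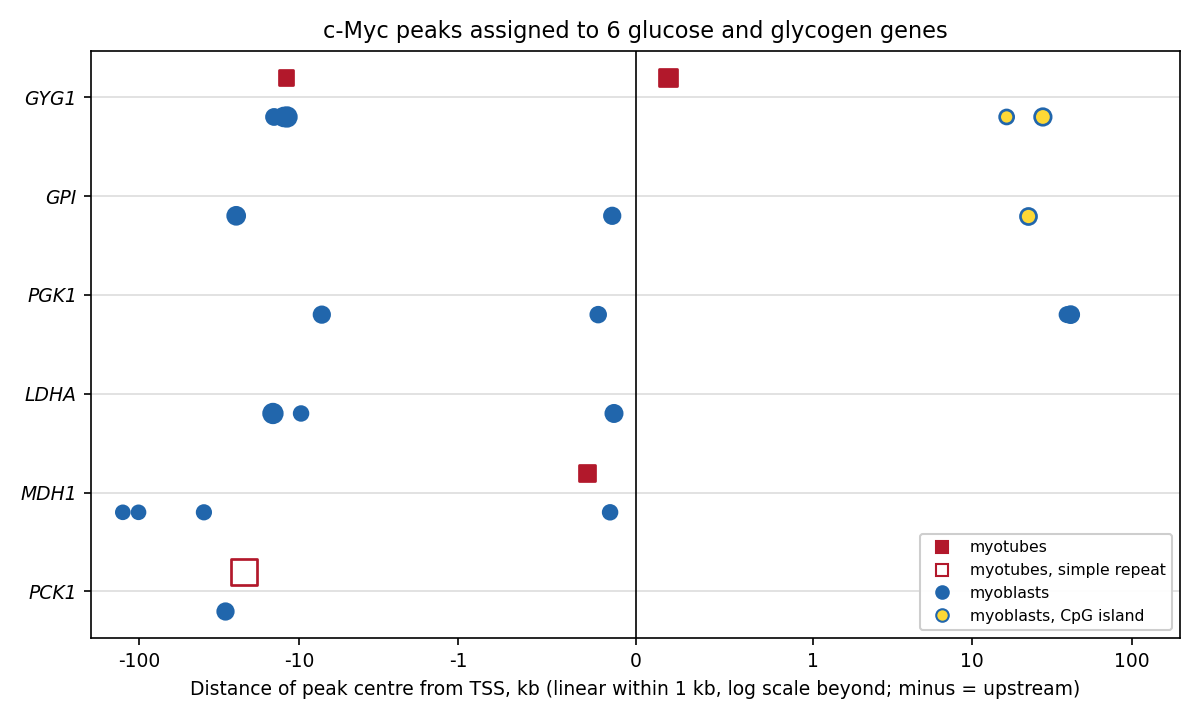
Position of every peak assigned to the 6 genes relative to the TSS in kb, linear within 1 kb and on a log scale beyond, with marker area proportional to the peak score in c-Myc tags per 10M. Myotube peaks (squares) stand above myoblast peaks (circles) of the same gene. The myotube squares near the TSS are at GYG1 and MDH1, and the myoblast circles near the TSS are at GPI, PGK1, LDHA and MDH1.

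GYG1 encodes glycogenin, the protein that primes each glycogen particle. Its myotube promoter peak, on chromosome 9 of galGal4 from 23424981 to 23425135, was centred 183 bp downstream of the TSS. It held 15 c-Myc tags (8.40 to 24.7) and 4 IgG tags (1.09 to 10.2). Scaled for depth, c-Myc was 8.36-fold above IgG (2.66 to 34.6), and the score of 16.8 was higher than that of 91.7% of myotube peaks.

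No myoblast peak lay closer than 11.9 kb to the GYG1 promoter peak of myotubes. At the density seen in myotubes, the deeper library and wider peaks of myoblasts would have given 25 tags by the caller's count (13.8 to 41.5), whereas the myoblast list holds peaks with as few as 9 tags. That value uses a factor of 1.72 for depth and width, and depth alone would give a factor of 1.33. Listed myoblast peaks also had a deposited fold over IgG of at least 4, and that of this myotube peak was 6.46. The density in myoblasts is not in the list, so the absence does not show a lack of binding. With single libraries the states cannot be compared further.

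Upstream of GYG1 both lists held peaks. In myoblasts a pair of peaks lay 12437 and 11878 bp upstream of the TSS, 559 bp apart from centre to centre. At the farther one 22.5 c-Myc tags and 0 IgG tags were counted. With IgG set to a floor of 3 tags per library, c-Myc was 10.5-fold higher, leaving out counting error. At the nearer one there were 23 c-Myc tags and 1 IgG tag, a ratio of 32.2 with a wide interval (5.23 to 1328). Their scores of 18.3 and 20 were above those of 95.6% and 98.1% of myoblast peaks. The 10.5 and 32.2 rest on unlike IgG values and cannot be ranked. The authors' deposited table gives a fold over IgG of 58.9 at the farther peak and 32.2 at the nearer.

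The second GYG1 peak of myotubes was centred 12061 bp upstream, between this pair. Its edges lay 6 bp from the nearer and 199 bp from the farther myoblast peak, so it overlapped neither. How often myotube peaks of the whole list lie this near a myoblast peak is not given here, so nothing is read from this spacing. This myotube peak had 11.5 c-Myc tags (5.84 to 20.3) and 0 IgG tags, 8.54-fold higher for c-Myc at the same floor, again leaving out counting error. With a score of 12.1 it was above 12.3% of the myotube list. At the density of the nearer myoblast peak, a myotube peak would have held 13.4 tags (8.47 to 20) by the caller's count. At that of the farther one it would have held 12.2 (7.55 to 18.6). The observed count was 10.5 (5.14 to 19). These intervals overlap, but the myotube window shares no bases with either myoblast window, so equal binding at 1 site is not shown. The expected values are scaled for depth and width, and values for depth alone are not given here.

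The remaining GYG1 peaks were in myoblasts. One lay 14.3 kb upstream and held 14.5 c-Myc and 4.5 IgG tags. The others lay 16.4 and 27.7 kb downstream in CpG islands, with 13 c-Myc and 3.5 IgG tags at the nearer and 18 and 2 at the farther.

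MDH1, the cytosolic malate dehydrogenase of the malate-aspartate shuttle, had overlapping promoter peaks. In myotubes the peak spanned 9406003 to 9406157 on chromosome 3, centred 276 bp upstream of the TSS, and in myoblasts 9406112 to 9406312, centred 144 bp upstream. They shared 45 bp. The share of all myotube peaks that overlap a myoblast peak is not given here, so nothing is read from this overlap. Each held 14 c-Myc tags (7.65 to 23.5), with 0 IgG tags in myotubes and 1.5 in myoblasts.

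In myotubes, with the 0 IgG tags set to the floor of 3, c-Myc at MDH1 was 10.4-fold higher than IgG, leaving out counting error. In myoblasts the ratio was 13.1 (2.56 to 197), from 1.5 IgG tags that were not set to the floor. The 10.4 and 13.1 thus rest on unlike IgG values and cannot be ranked. The scores were 16.2 in myotubes and 10.9 in myoblasts, above 88.7% and 11.5% of their lists, and ranks in lists of different length show no change. The authors' deposited table gives a fold over IgG of 62.4 in myotubes and 4.38 in myoblasts, from 0.2 and 2.9 scaled IgG tags. The lowest such fold in the myoblast list was 4, so the myoblast peak stood near that limit. In myoblasts the caller's scaled IgG value is thus higher than the 1.5 tags counted over the peak. At the myoblast density, the myotube peak would have held 7.26 tags (3.81 to 12.5) by the caller's count, against 14 observed (7.65 to 23.5). The 7.26 uses a factor of 0.581 for depth and width, and depth alone would give a factor of 0.754. These intervals overlap, but the windows share only 45 bp, so neither equal binding nor a difference is shown.

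The other MDH1 peaks were in myoblasts, 39.4, 101 and 127 kb upstream. They were among the weakest assigned, with 12, 11 and 11 c-Myc tags and 2, 2.5 and 2 IgG tags. The 2 farthest had a score of 9.59, which exceeded 0.780% of the myoblast list.

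GPI, PGK1 and LDHA carried their promoter peaks in myoblasts. GPI encodes glucose-6-phosphate isomerase, an early enzyme of glycolysis, and its peak on chromosome 11 from 10450643 to 10450843 was centred 132 bp upstream of the TSS. It held 16 c-Myc tags (9.15 to 26) and 5 IgG tags (1.62 to 11.7), a ratio of 4.48 (1.57 to 15.7). That is the most IgG tags of the 6 promoter peaks, and the score was 13.9.

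PGK1 encodes phosphoglycerate kinase, which makes ATP in the later part of glycolysis. Its promoter peak, on chromosome 4 from 12897858 to 12898058, was centred 211 bp upstream and had 14.5 c-Myc tags (8.02 to 24.1) and 3 IgG tags. The ratio was 6.77 (1.90 to 36.6) and the score 12.6, equal to the median score of the list. The newer RefSeq annotation (GRCg7b) names the gene with this gene ID PGK2 and lists PGK1 as its synonym.

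LDHA encodes the A subunit of lactate dehydrogenase. Its promoter peak spanned 11936605 to 11936805 on chromosome 5, centred 122 bp upstream, and held 18.5 c-Myc tags (11.1 to 29.1) and 3 IgG tags (0.619 to 8.77). The ratio was 8.64 (2.53 to 45.7). With a score of 15.3, it stood highest of the 4 myoblast promoter peaks, above 82.2% of the list, although the intervals of all 4 overlap.

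The absence of these genes from the myotube list does not show a loss of binding. With the totals and widths of both lists taken into account, the myoblast density would have given myotube peaks of 10.2 tags at LDHA (5.97 to 16.2), 9.29 at GPI (5.31 to 15.1) and 8.42 at PGK1 (4.66 to 14). Scaled for depth alone, the values would be 13.2, 12.1 and 10.9. The myotube list holds peaks from 9 tags up, with a median of 11.5, so where equal density falls in it depends on the width scaling. Listed myotube peaks also had a deposited fold over IgG of at least 4.01. The folds of these myoblast peaks were 8.18 at LDHA, 5.61 at GPI and 6.77 at PGK1. The IgG tags of myotubes at these sites are not in the list. The nearest myotube peaks lay 230 kb from the LDHA promoter peak, 421 kb from that of GPI and 149 kb from that of PGK1.

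Away from promoters, LDHA had a myoblast peak 14.6 kb upstream with 23 c-Myc and 6.5 IgG tags, as high in score (20) as the stronger GYG1 peak but with more IgG. Its other peak, 9.70 kb upstream, had 12.5 and 2.5 tags. GPI had one 24.7 kb upstream with 18.5 and 7 tags, the highest IgG count among the myoblast peaks of the 6 genes, and one 22.5 kb downstream in a CpG island with 16 and 1.5. PGK1 had one 7.19 kb upstream with 16 and 3 tags. A further pair lay 39.3 and 41.4 kb downstream of PGK1, with 14 and 18.5 c-Myc tags and 3 and 5 IgG tags.

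**Figure D2:**
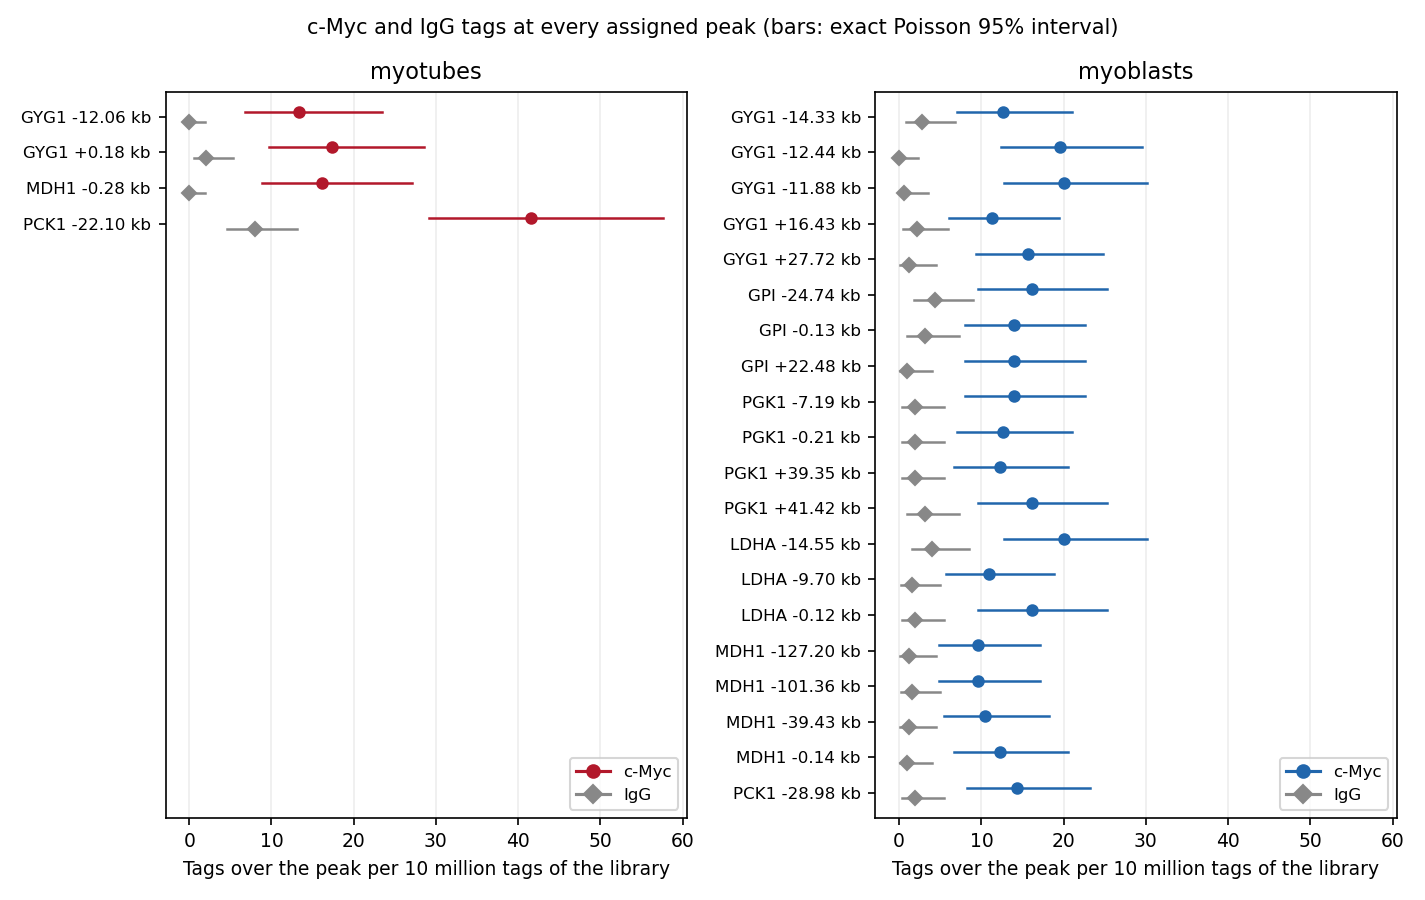
Tags counted over each of the 24 peaks per 10M tags of the library (x axis), c-Myc (circles) above IgG (diamonds). Myotubes are on the left and myoblasts on the right, with 95% Poisson intervals as bars, approximate at fractional tags. PCK1 in myotubes has the highest value of c-Myc, 41.6, and of IgG, 8.04. The IgG points of the other peaks lie between 0 and 4.35.

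PCK1 encodes the cytosolic phosphoenolpyruvate carboxykinase of gluconeogenesis and glyceroneogenesis. Its myotube peak, on chromosome 20 from 11927988 to 11928142, was 22.1 kb upstream of the TSS and labelled a simple repeat of TC units. It held 36 c-Myc tags (25.2 to 49.8) and 15.5 IgG tags (8.77 to 25.4), a ratio of 5.18 (2.78 to 10.1). It ranked 13 of 1061 myotube peaks by score and also 13 by IgG tags. The authors' deposited table gives it a fold over the local region of 25.4.

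Simple repeats made up 4.52% of myotube peaks and 0.687% of myoblast peaks. The 48 such peaks of myotubes had a median of 21.5 c-Myc and 7.75 IgG tags, against 11.5 and 3 over the other 1013 peaks. Both libraries thus gave more tags at the listed repeat peaks. Listed myotube peaks had a deposited fold over IgG of at least 4.01, so a site with many IgG tags was listed only with many c-Myc tags. Repeats outside the list are not seen. The 13 peaks labelled as TC repeats had lower medians, 14.5 c-Myc and 7 IgG tags, with IgG counts from 1.5 to 43, and the PCK1 peak with 36 and 15.5 lay above those medians. Whether repeat sequence sets the tags at the PCK1 peak was not tested.

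The PCK1 peak of myoblasts was a separate site, 28982 bp upstream and 6.88 kb from the myotube peak. It held 16.5 c-Myc tags (9.52 to 26.6) and 3 IgG tags, and carried no repeat label. At the density of the myotube peak, a myoblast peak there would have held 62 tags (43.4 to 85.8), and none was listed. Listed myoblast peaks also had a deposited fold over IgG of at least 4, and that of the myotube peak was 5.18. Neither the c-Myc nor the IgG tags of myoblasts at this site are in the list, so no loss of binding is shown.

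**Figure D3:**
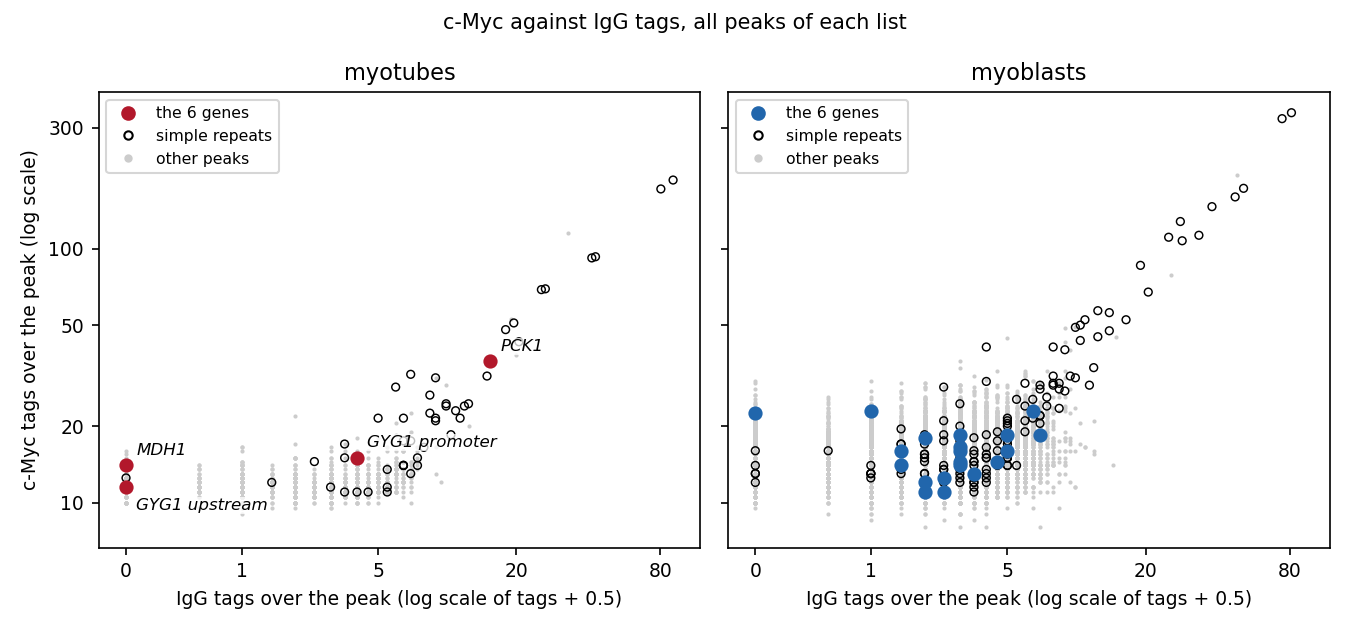
c-Myc tags (y axis, log scale) against IgG tags (x axis, log scale of tags + 0.5) for every peak of the myotube list on the left and the myoblast list on the right. Filled points are peaks of the 6 genes and open circles are simple repeats. PCK1 in myotubes, with 36 c-Myc and 15.5 IgG tags, stands among the simple repeats, and the MDH1 peak and the upstream GYG1 peak of myotubes stand at 0 IgG tags.

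Across all peaks of the 6 genes the median score was 16.5 in myotubes (range 12.1 to 41.6), with 13.3 for the whole list, and 13.9 in myoblasts (9.59 to 20), with 12.6 for the whole list. IgG tags had medians of 2 and 3, with 3 and 2.5 for the whole lists. By score, the weakest and strongest stood above 12.3% and 98.8% of the myotube list and above 0.780% and 98.1% of the myoblast list. A fold over IgG of at least 8 in the authors' deposited table was reached by 2 of the 4 myotube peaks and 7 of the 20 myoblast peaks, beside 57.1% and 49.8% of the whole lists. With that limit, the promoter peaks that remained were those at MDH1 in myotubes and LDHA in myoblasts. The limit depends on the ratio used: that table gives 6.46 for the GYG1 promoter peak in myotubes and 4.38 for MDH1 in myoblasts, whereas the ratios of tags over the peak were 8.36 and 13.1.

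**Figure D4:**
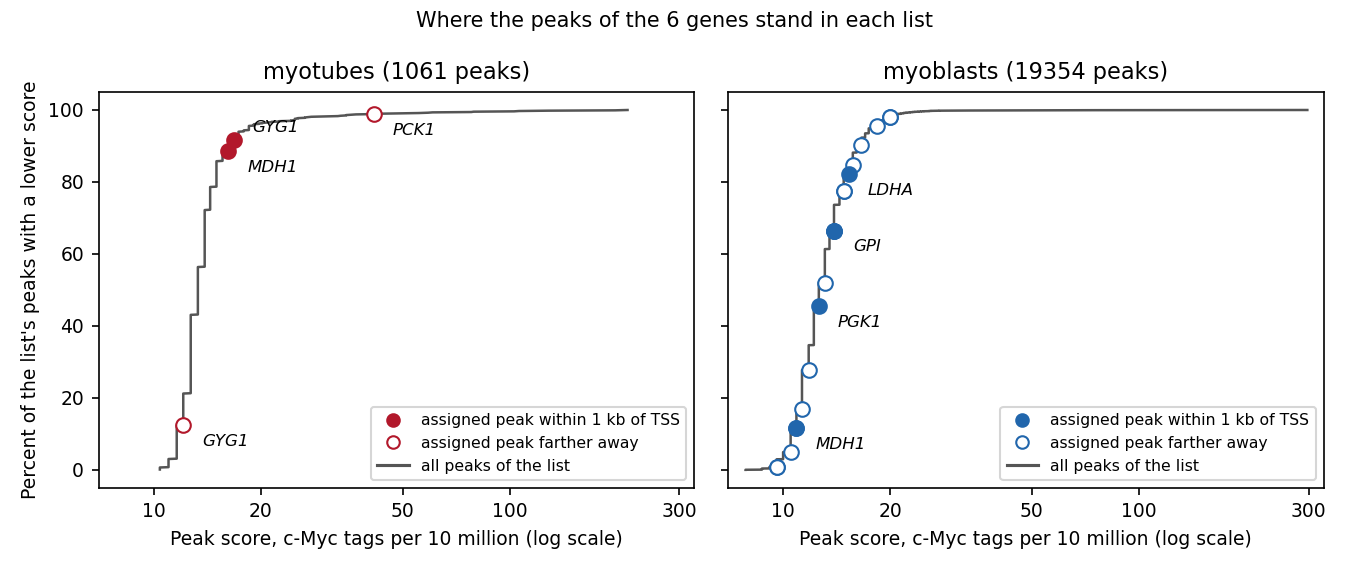
Share of each list's peaks with a lower score (y axis, percent) against the peak score in c-Myc tags per 10M (x axis, log scale), myotubes on the left and myoblasts on the right. The line is the whole list, filled points are promoter peaks of the 6 genes and open points their other peaks. In myotubes GYG1 and MDH1 stand at 91.7% and 88.7%, and in myoblasts the promoter peaks run from 11.5% at MDH1 to 82.2% at LDHA.

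A wider list of 130 gene symbols of glucose metabolism held 44 genes named in the peak lists, the 6 included. Of these, 2 (4.55%, 0.555 to 15.5%) had a promoter peak in myotubes and 13 (29.5%, 16.8 to 45.2%) in myoblasts, beside 1.37% and 22.0% of all genes named in either list. Without the 6 genes, 0 of 38 had one in myotubes (exact interval up to 9.25%; 3 counts of 38 would be 7.89%), and 9 of 38 (23.7%, 11.4 to 40.2%) in myoblasts. Both intervals without the 6 genes include the shares over all genes. The lists were chosen with earlier results of these data known, so the intervals are descriptions and no test.

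The 9 myoblast genes spread over several steps. The counts per step include the 6 genes, which were chosen on their peaks, and cover only symbols named in the peak lists, so they stand beside the same 1.37% and 22.0% of all genes and nothing is read from them. Those in glycolysis were PKM2, pyruvate kinase, with 18 c-Myc and 5.5 IgG tags, and BPGM, bisphosphoglycerate mutase. BPGM had 2 promoter peaks, with 14.5 and 15 c-Myc tags and 2.5 and 1.5 IgG tags. With GPI and PGK1, PKM2 and BPGM made 4 of 8 glycolytic genes named in the lists (15.7 to 84.3%), out of 26 symbols.

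Pyruvate oxidation had 4 further genes. PDHA1 and PDHB encode the subunits of pyruvate dehydrogenase, DLD the dihydrolipoamide dehydrogenase of the same complex, and PDP1 the phosphatase that activates it. PDHA1 had 25.5 c-Myc tags (16.6 to 37.5) and 1 IgG tag, and its score of 21.4 was above 98.9% of the myoblast list and higher than at any of the 6 genes in that state. PDP1 had 20 c-Myc tags and 0 IgG tags, DLD 15.5 and 1.5, and PDHB 13 and 4.5. With LDHA, 5 of 14 named genes of lactate and pyruvate had a promoter peak (35.7%, 12.8 to 64.9%), beside the 22.0% of all genes.

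The rest were GOT2, the mitochondrial aspartate aminotransferase of the malate-aspartate shuttle, with 13.5 c-Myc and 1.5 IgG tags, PGM1, phosphoglucomutase, with 14 and 1, and TALDO1, the transaldolase of the pentose phosphate pathway, with 13.5 and 1.5. Counting MDH1, the shuttle had 1 of 4 named genes in myotubes and 2 of 4 in myoblasts. Glycogen genes had 1 of 9 in each state, GYG1 in myotubes and PGM1 in myoblasts. Both myotube genes, MDH1 and GYG1, were among those chosen on their peaks. Glucose uptake and gluconeogenesis had 0 of 3 each in both states. Another 5 genes, EPM2A, FBP1, LDHB, PHKB and PHKG1, named here after their values were seen, had their closest myoblast peak between 1.04 and 1.56 kb from the TSS. The count of 13 is therefore bound to the window and became 23 at 5 kb, where the share of all genes is not given here.

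**Figure D5:**
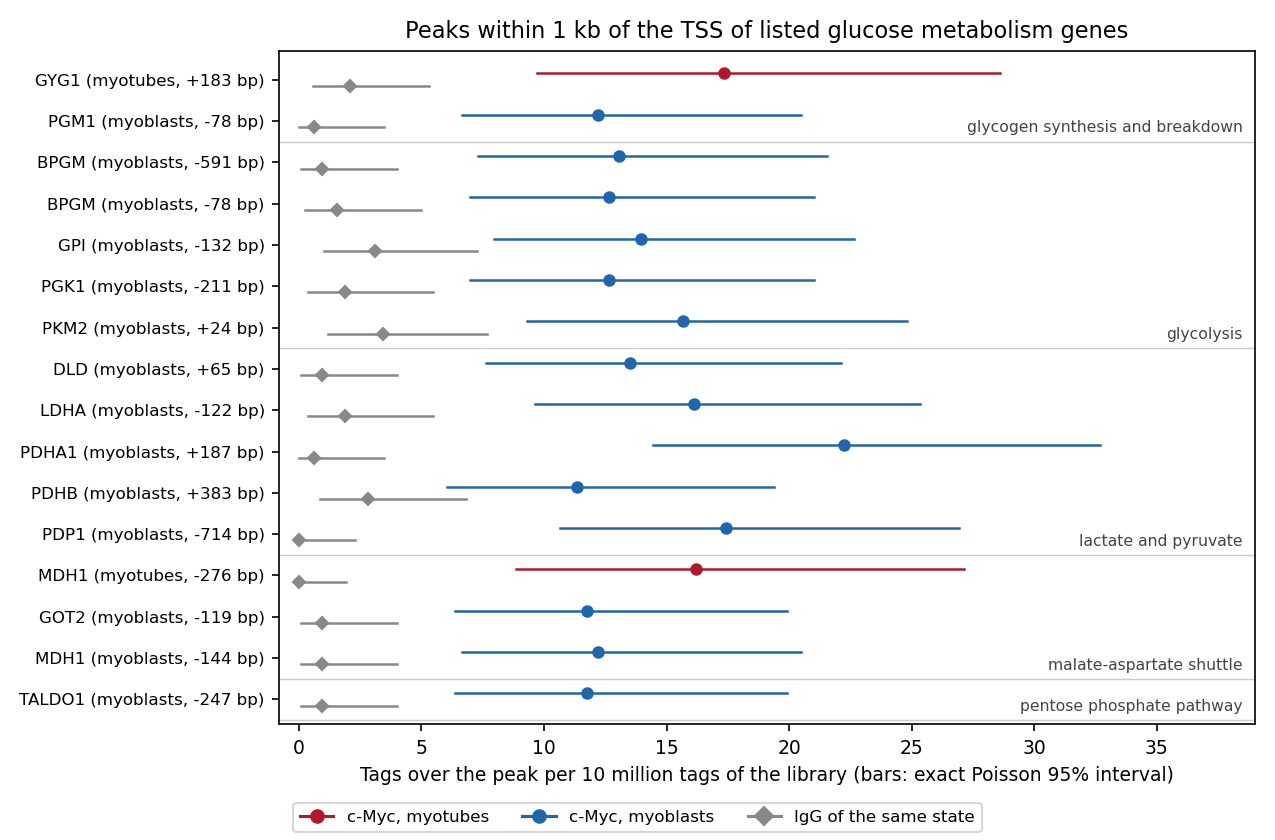
Tags per 10M tags of the library (x axis) over each promoter peak of the listed glucose metabolism genes, grouped by step. Bars are 95% Poisson intervals, approximate at fractional tags. Circles are c-Myc (GYG1 and MDH1 in myotubes, the rest in myoblasts) and diamonds IgG of the same state. PDHA1 has the highest c-Myc value, 22.2, and PDP1 and the MDH1 peak of myotubes have 0 IgG tags.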

How the data were processed

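The labels describe 1 c-Myc and 1 IgG library for each cell state. Per the submitters' processing notes, which state neither order nor options, the authors used CASAVA 1.8.2, Trimmomatic 0.30, FastQC 0.10.1, Bowtie2 2.1.0, HOMER 4.6 and the build galGal4. The authors called peaks for c-Myc against IgG of the same state and annotated them, per the file headers. The deposited signal columns hold unscaled tags of both libraries over each peak, in steps of 0.5 tags. The deposited peak score equals the caller's c-Myc tags per 10M (M for 1e+06) within 0.05. Fold ratios and p-values are those of the authors' caller, and the deposited distances run from the TSS to the peak centre.

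From these lists, peaks were selected by gene name, with Python 3.11.15, pandas 2.3.3, numpy 2.4.6, scipy 1.17.1 and matplotlib 3.10.9. The counting was tested on simulated data. Ratios of c-Myc to IgG were scaled by library totals, with conditional intervals from exact formulas, and a count of 0 was set to 3 tags. Tags expected at equal density were scaled by library total and peak width. Peaks of the states overlapped when they shared at least 1 bp. Every listed gene with a promoter peak was named. No test was run, since each group is 1 library. All 6 gene IDs matched the RefSeq table of GRCg7b, used for names. No genome or promoter sequence was used here, so the planned search for E-box motifs was not run. The genes and lists were chosen with earlier results of these data known.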

Additional observations from a re-analysis of the deposited data

How the results depend on the processing

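No paired analysis was possible because each group is 1 library and no test was made. Tags per peak by the count over the fixed window (an alternative chosen after seeing the data) had medians of 16.8 per 10M in myotubes and 13.9 in myoblasts, close to the scores. A fold over IgG of at least 8 left 2 myotube and 7 myoblast peaks of the 6 genes. It left 1 of these genes with a promoter peak in myotubes and 1 in myoblasts, and of the wider list 1 gene in myotubes and 8 in myoblasts. The upper 50% of each list by score left 13 of the 20 myoblast peaks and 8 of the 13 wider-list genes in myoblasts. In myoblasts the wider list had 23 genes with a peak within 5 kb and 44 at any distance, and in myotubes 8 at any distance. Of all 4832 named genes, 4766 in myoblasts and 885 in myotubes had a peak at any distance. Nothing is read from these counts, and the shares of all genes at 5 kb or a fold of 8 are not given. The single overlap between states, at MDH1, became 0 when 50% of the myotube peak had to be covered and 2 when centres within 1 kb sufficed, which added GYG1. The share of the whole myotube list that overlaps a myoblast peak is not given here, so nothing is read from these overlaps. Scaling by library total alone, also chosen after seeing the data, moved the tags expected in myotubes at LDHA, GPI and PGK1 to 13.2, 12.1 and 10.9, within their counting intervals. The remaining alternatives kept counts within 1.5 times. Counting error at 10 to 20 tags a peak, and 1 library a group, limit every value.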

Other observations

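Within 100 kb of the 6 TSS the myotube list had 4 peaks, all assigned to GYG1, MDH1 or PCK1, and the myoblast list had 46. Around LDHA, 9 of 12 myoblast peaks were assigned to other genes, among them a promoter peak of TSG101, a component of the ESCRT sorting machinery, 19.6 kb downstream of the LDHA TSS with 14 c-Myc and 1.5 IgG tags. Around PCK1, 5 of 6 were, including a promoter peak of RAE1, an mRNA export factor, with 19 and 4 tags. Around GYG1, 6 of 11 were, all assigned to TM4SF1, a tetraspanin-like membrane protein, with a promoter peak at 12 and 0 tags. Around PGK1, 4 of 8 belonged to other genes, with a promoter peak of MAGT1, a gene named for magnesium transport, at 16 and 4 tags. Around MDH1 3 of 5 and around GPI 1 of 4 myoblast peaks belonged to other genes.

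Next to MDH1 lies UGP2, which makes the UDP-glucose that glycogen synthesis consumes. UGP2 had 2 myoblast peaks, 11081 bp from its own TSS in intron 3 (16 c-Myc and 4 IgG tags) and 31840 bp from it (17.5 and 2.5), and no myotube peak. In the RefSeq annotation of GRCg7b the genes WDPCP and LOC121110489 overlap MDH1. That annotation also lists LOC107054152 as overlapping GYG1, LOC107052085 as overlapping PGK1 and LOC419322 as overlapping PCK1. The authors' annotation names 1 nearest gene for each peak. The distance of the peaks to the starts of these overlapping genes in galGal4 was not analysed here.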
